A study of Mus musculus with 48 samples.

Results

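The immediate early response genes followed here were Fos, Fosb, Jun, Junb, Egr1, Ier2, Atf3, Nr4a1 and Dusp1. They were taken by symbol, 9 of the 22173 genes in the count table and 9 of the 13682 genes in the FPKM table, and by Ensembl identifier, 9 of the 32285 genes in the single-cell table. All 9 passed the filters on low values, among 16398 genes tested across the stages, 11512 across the days of culture and 10644 at 24 h and 48 h. The study made gonadal somatic cell-like cells (GSCLCs) from female mouse embryonic stem cells and compared them with gonadal somatic cells (GSCs), all of the C57BL/6 strain. GSCs of female gonads at 3 embryonic stages named by the day (E12.5, E13.5, E16.5) and of ovaries at 6 weeks (P6w) gave 2 RNA-seq libraries each. Stem cells kept without small molecules (Con), with vitamin C (Vc), with AM580, an agonist of the retinoic acid receptor alpha, or with both (V580) gave 2 libraries each at 24 h and at 48 h. V580 cultures at days 4, 6, 8 and 10 (V580_D4 to V580_D10) and cells of E12.5 female gonads (E12.5_GC) gave 3 libraries each, and V580 cells at day 6 gave 1 10x single-cell library. By the study's methods, GSCs were the cells of dissociated gonads that an SSEA1 magnetic column did not hold back, so they were not sorted on a marker of their own.

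Immediate early genes are transcribed within minutes of a stimulus from transcription factors that the cell already holds, and their mRNAs are short-lived. The proteins of Fos, Fosb, Jun and Junb pair into AP-1, a transcription factor of the bZIP class. Atf3 codes for a related stress-responsive bZIP factor, Egr1 for a zinc finger factor and Nr4a1 for an orphan nuclear receptor. Ier2 codes for a small nuclear protein, and Dusp1 for a phosphatase that switches off MAP kinases and so closes the loop. In gonads they are known for answering to hormones and growth factors, and in many tissues for answering to dissociation and stress.

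Promoter sequences of 7 members were in the RefSeq promoter table of GRCm38.p6, which covers 250 bases before to 50 bases after each start. Egr1 and Ier2 had no entry. The bases before the start are printed for 4 members whose levels moved apart in the results, on the coding strand, at chr12:85473640-85473889 (plus strand) for Fos, chr4:95052223-95052472 (minus) for Jun, chr15:101266596-101266845 (plus) for Nr4a1 and chr17:26508473-26508722 (minus) for Dusp1. Capitals mark TGACG, the core of the cAMP response element, on either strand (CGTCA when read on the other), the full element TGACGTCA in Dusp1 and the AP-1-like TGACATCA in Jun.
Fos: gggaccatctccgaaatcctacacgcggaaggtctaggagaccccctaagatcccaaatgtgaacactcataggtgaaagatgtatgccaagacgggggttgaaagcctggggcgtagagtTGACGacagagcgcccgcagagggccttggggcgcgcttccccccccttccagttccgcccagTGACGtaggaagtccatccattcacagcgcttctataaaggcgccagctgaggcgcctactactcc
Jun: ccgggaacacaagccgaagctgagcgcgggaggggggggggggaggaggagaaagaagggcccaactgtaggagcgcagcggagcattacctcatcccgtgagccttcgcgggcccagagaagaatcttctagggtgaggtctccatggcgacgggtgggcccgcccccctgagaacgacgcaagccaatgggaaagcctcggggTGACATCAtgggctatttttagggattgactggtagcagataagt
Nr4a1: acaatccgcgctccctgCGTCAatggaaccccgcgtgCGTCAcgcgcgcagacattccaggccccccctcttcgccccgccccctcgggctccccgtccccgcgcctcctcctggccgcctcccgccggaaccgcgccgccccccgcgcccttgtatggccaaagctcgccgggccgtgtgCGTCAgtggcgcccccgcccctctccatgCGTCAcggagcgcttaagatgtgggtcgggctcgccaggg
Dusp1: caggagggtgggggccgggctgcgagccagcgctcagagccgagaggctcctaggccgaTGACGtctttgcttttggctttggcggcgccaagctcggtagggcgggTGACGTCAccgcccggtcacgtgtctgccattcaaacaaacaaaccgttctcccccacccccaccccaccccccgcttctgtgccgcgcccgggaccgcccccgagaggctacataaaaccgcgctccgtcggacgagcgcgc
TGACG lay in 6 of the 7 member promoters, all but that of Jun, and in 20.8% of the 32851 promoters in the table. Nr4a1 held 4 copies, the nearest 40 bases before the start, and Fos held 2, at 129 and 66 bases before it. TGACGTCA lay in 1 of 7 (Dusp1) and in 1.79% of all promoters, and it contains TGACG on both strands. TGACATCA lay in 1 of 7 (Jun) and in 3.62% of all. The AP-1 element TGACTCA (5.2% of all promoters) and the CArG box bound by SRF (1.63%) lay in 0 of 7 within these windows. All motifs were searched on both strands, and TGACG and TGACATCA were searched after the letters had been seen. By GENCODE on GRCm38, the genes themselves lie at chr12:85473890-85477273 (Fos), chr4:95049034-95052222 (Jun), chr15:101254269-101274795 (Nr4a1) and chr17:26505590-26562128 (Dusp1), all protein-coding. For Nr4a1 and Dusp1 the annotated gene spans more than 1 start, so the printed window stands for the RefSeq start. The motif matches describe the letters in a window of fixed length and are no test of binding.

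The stage libraries held 12694769 to 22259044 counts. CPM is a count scaled to the library's total after that total was multiplied by a normalisation factor (TMM). This factor ran from 0.8847 (E13.5, replicate 1) to 1.121 (E12.5, replicate 2). Before this adjustment, 1 CPM stood for 12.7 to 22.3 reads. The labels put 5 libraries on lane 5, those of E12.5 and E13.5 and replicate 1 of E16.5, and 3 on lane 1, replicate 2 of E16.5 and those of P6w. For P6w against E12.5, stage and lane therefore cannot be told apart. The E12.5 libraries, labelled female, held 97 to 103 counts of the Y-linked gene Ddx3y, against 0 to 4 in all other stage libraries, so the comparisons that leave E12.5 out are given as well. Gonadal somatic markers (7 genes, among them Gata4 and Wt1) were all detected and summed to a CPM of 1625 to 1646 at E12.5, of 1232 to 1255 at E13.5, of 871 to 989 at E16.5 and of 819 to 850 at P6w. Both libraries of E12.5 carry 1 name with separate index codes, as do both of E13.5. They differed by more than sampling noise, with chi-square per degree of freedom of 5.8 and 6.66, against 35.7 at E16.5 and 5.86 at P6w. The labels do not say that the libraries of a group came from separate animals or cultures, so p-values measure only the spread between these libraries, which may be technical. In bulk RNA, fewer cells of a type and less RNA per cell cannot be told apart.

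All 9 genes were well expressed in GSCs of every stage. Per kilobase of exon, Ier2 ranked first and Fos second at each stage, with means of 617 and 516 CPM per kb at E12.5. The lowest per kilobase was Dusp1 at E12.5 (21.3 CPM per kb) and P6w (13.4), and Fosb at E13.5 (13.0) and E16.5 (65.9). Fos stood at 1162 and 1265 CPM in the 2 libraries of E12.5, whereas those of E13.5 had 1030 and 1083, those of E16.5 had 880.6 and 1722 and those of P6w had 1607 and 1522. The 2 E16.5 libraries thus held both the lowest and the highest Fos level of the 8.

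**Figure D1:**
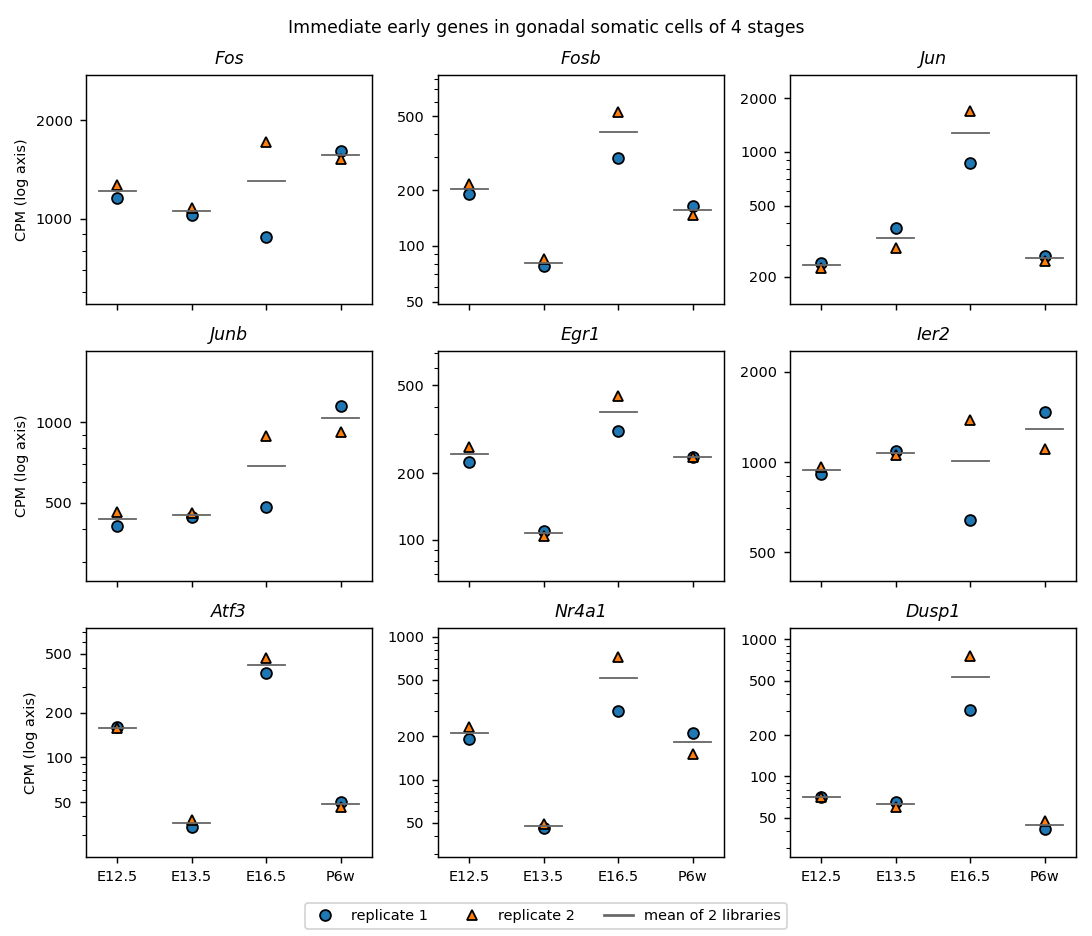
CPM (log axis) of the 9 genes in the 8 stage libraries, each point a library. Atf3 and Nr4a1 have their lowest points at E13.5 and Dusp1 its highest at E16.5, where the second library lies above the first for all 9 genes.

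From E12.5 to E13.5, Atf3, Nr4a1, Fosb and Egr1 were lower and none of the 9 was called higher, at an edgeR Benjamini-Hochberg (BH) adjusted p below 0.05. These 4 of 9 members stood beside 45.9% of all genes called in either direction, so the share was near the background. Atf3 read 159.3 and 158.5 CPM at E12.5 and 33.89 and 37.76 at E13.5, a log2 difference of -2.15 (SE 0.14, adjusted p 1.39e-07). Nr4a1 read 191.4 and 231.7 CPM at E12.5 and 45.67 and 48.65 at E13.5 (log2 -2.17, SE 0.29, adjusted p 3.92e-05). For both genes, the libraries of the 2 stages lay far apart and those within a stage close together. Fosb went from 191.5 and 214.7 to 77.53 and 84.7 CPM (log2 -1.32, SE 0.19, adjusted p 8.13e-05). Egr1 went from 224.9 and 261.7 to 109.7 and 104.4 CPM (log2 -1.18, SE 0.15, adjusted p 2.78e-05). The other AP-1 genes and the feedback phosphatase did not pass the test, with log2 differences of -0.20 for Fos, 0.05 for Junb, 0.52 for Jun and -0.17 for Dusp1. Ier2 likewise stood at log2 0.19. The median over the 9 was -0.20, and over all genes 0.03. A model of only these 2 stages called 7 of the 9, 2 of them higher. The 45.9% belongs to the model of all stages, and the share of all genes called in this smaller model is not given here.

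At E16.5, 7 of the 9 were higher than at E12.5 and none lower, beside 37.6% of all genes called. Dusp1 read 70.41 and 70.7 CPM at E12.5 and 304.8 and 759.3 at E16.5, a log2 difference of 2.91 (SE 0.28, adjusted p 1.82e-06), or 7.53-fold. Jun read 238.8 and 224.9 CPM at E12.5 and 861.5 and 1692 at E16.5 (log2 2.46, SE 0.23, adjusted p 1.19e-06). In both genes the lower E16.5 library lay above both E12.5 libraries. Atf3 reached 369.8 and 468 CPM (log2 1.40, SE 0.13), Nr4a1 300.2 and 720.9 (log2 1.27, SE 0.28) and Fosb 297.7 and 525.4 (log2 1.02, SE 0.19), with edgeR adjusted p values of 1.13e-06, 0.00222 and 0.000743. Egr1, at 309.8 and 445.4 CPM, differed by log2 0.63 (adjusted p 0.00376). Junb, at 410.1 and 460.9 CPM at E12.5 and 484.1 and 887.6 at E16.5, differed by log2 0.65 (edgeR adjusted p 0.0198), a call that DESeq2 did not make (log2 0.65, adjusted p 0.126). Fos (log2 0.10) and Ier2 (log2 0.11, from 915.5 and 961.1 to 642.6 and 1381 CPM) did not pass the test. The median over the 9 was 1.02, against -0.01 over all genes.

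The call for E16.5 depended on which library stood for that stage. Without the second E16.5 library, 6 members were higher than at E12.5 and 2 lower, with Fos at log2 -0.46 (edgeR adjusted p 0.000421) and Ier2 at -0.55 (adjusted p 0.00114). Without the first E16.5 library, all 9 were higher, with Fos at 0.50 and Ier2 at 0.55. Fosb, Jun, Egr1, Atf3, Nr4a1 and Dusp1 were called higher either way.

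The difference between the 2 E16.5 libraries ran one way for all 9 genes. On the log2(CPM+0.5) scale, the second library exceeded the first by 0.34 (Atf3) to 1.32 (Dusp1), with a median of 0.97. Over all genes, the median difference between the same libraries was 0.01 and the median absolute difference 0.269. Of all genes tested, 0.482% lay as far apart as Dusp1, 0.659% as far as Nr4a1 and 1.55% as far as Ier2, but 39.3% as far as Atf3. At the other stages the members' median difference was 0.12 (E12.5), 0.05 (E13.5) and -0.11 (P6w), with 7, 5 and 1 of the 9 above 0. Replicate 2 of E16.5 also differed from replicate 1 in lane and in depth (15835114 against 21063754 counts), and the part of either in these levels was not tested.

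**Figure D2:**
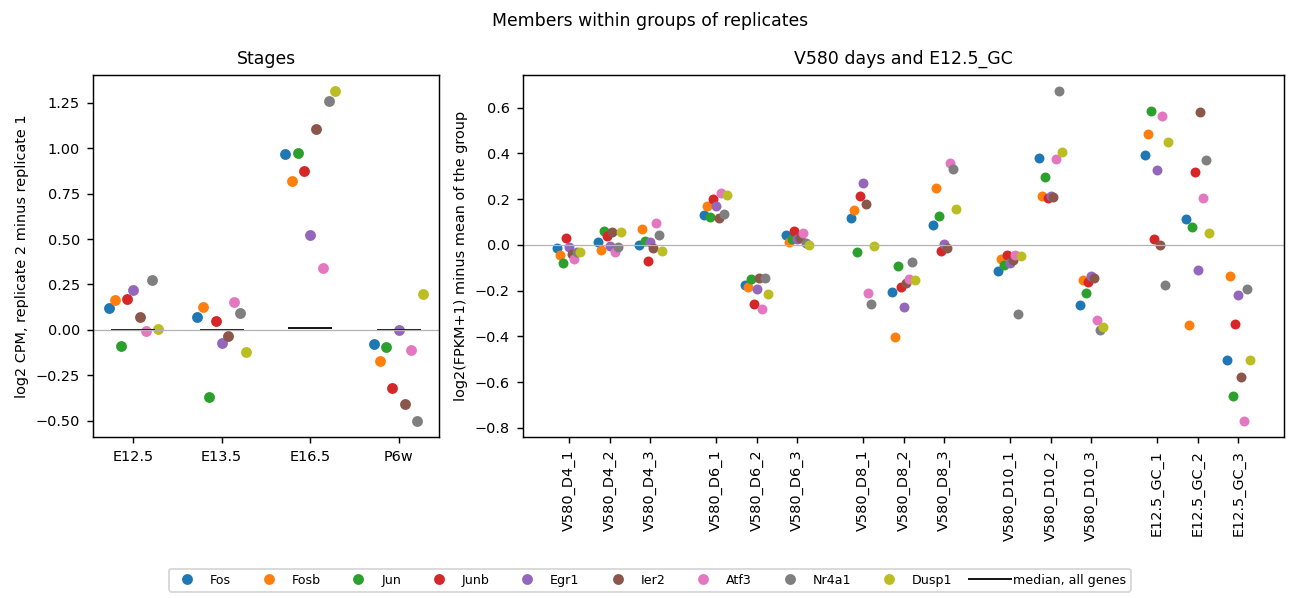
Left, log2(CPM+0.5) of the second minus the first library of each stage, 1 point a gene. Right, log2(FPKM+1) of each V580 or E12.5_GC library minus the mean of its group, 1 point a gene. The 9 points of a library tend to lie on the same side of 0, most clearly at E16.5 (0.34 to 1.32) and at V580_D10.

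Set against E13.5, a comparison free of the E12.5 libraries, E16.5 again had 7 of 9 members higher and none lower, beside 54.1% of all genes called. Atf3 differed by log2 3.55 (SE 0.14, adjusted p 2.09e-09), or 11.7-fold, Nr4a1 by 3.44 (SE 0.30, adjusted p 5.47e-07) and Dusp1 by 3.08 (SE 0.29, adjusted p 8.8e-07). Dusp1 stood at 65.44 and 60.17 CPM at E13.5, near its E12.5 values, whereas Atf3 and Nr4a1 started from the low E13.5 values given above. Fosb (2.34), Jun (1.95), Egr1 (1.82) and Junb (0.60, adjusted p 0.0209) were also called higher, and Fos (0.30) and Ier2 (-0.08) were not. DESeq2 did not call Junb here (adjusted p 0.139). Without the second E16.5 library, 6 were higher and 2 lower, with Fos at log2 -0.26 (adjusted p 0.021) and Ier2 at -0.73. Without the first, all 9 were higher, with Fos at 0.71 and Ier2 at 0.37 (adjusted p 0.0126).

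In ovaries at 6 weeks, Junb was higher and Atf3 lower than at E12.5, and the other members did not pass the test in the model of all stages. Junb, at 1153 and 923.1 CPM, was higher than at E12.5 (log2 1.25, SE 0.21, edgeR adjusted p 0.000113), and Atf3, at 50.08 and 46.28 CPM, was lower (log2 -1.72, SE 0.14, adjusted p 4.82e-08). These 2 of 9 stood beside 52.9% of all genes called. The other 7 lay between log2 -0.67 (Dusp1, adjusted p 0.0538, at 41.17 and 47.28 CPM) and 0.45 (Ier2, at 1467 and 1104 CPM). Without the filter on low counts, or in a model of only these 2 stages, 6 of the 9 were called, 3 in each direction. No share of all genes called is given for these 2 fits. Dusp1 was called lower with a replicate block (log2 -0.69, adjusted p 0.0266) and with a length term (-0.70, adjusted p 0.0387). Against E16.5, 6 members were lower and 1 higher, beside 56.1% of all genes called. Dusp1 differed by log2 -3.59 (SE 0.30, adjusted p 8.05e-08) and Atf3 by -3.12 (SE 0.14, adjusted p 9.43e-11). Jun (-2.33), Nr4a1 (-1.49), Fosb (-1.40) and Egr1 (-0.67) made up the rest of those lower, and Junb (0.60, adjusted p 0.0205) was the member that was higher, a call not made by DESeq2 (adjusted p 0.114). Without the second E16.5 library, the count was 3 higher and 6 lower, and without the first, 0 and 6.

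Of a wider list of 41 other immediate early genes, 4 were higher and 19 lower at E13.5 than at E12.5 (median log2 -0.49, all genes 0.03), led by Egr3 (-2.99) and Nr4a3 (-2.35), relatives of Egr1 and Nr4a1. At E16.5, 28 were higher and 2 lower than at E12.5 (median 1.20, all genes -0.01), led by Phlda1 (3.98) and the Fos family gene Fosl1 (2.81). Against E13.5, 31 were higher and 1 lower at E16.5, and at P6w 2 were higher and 31 lower than at E16.5. At P6w against E12.5, 13 were higher and 21 lower. Of genes that ERK signalling is known to induce, 11 were listed, the Dusp, Spry and Spred genes, whose products damp the pathway, and the ETS factor genes Etv4 and Etv5. This list had 10 lower and none higher at E13.5 against E12.5 and all 11 lower at P6w against E12.5 and against E16.5. At E16.5, 9 of these 11 were higher and 1 lower than at E13.5, led by the phosphatase genes Dusp4 (3.52) and Dusp5 (3.19), but against E12.5, 3 were higher and 2 lower. Of 10 upstream factors, the SRF, ELK and CREB families, 6 were lower at E13.5 than at E12.5 (Srf -1.44) and 7 were higher and 1 lower at E16.5 than at E13.5 (Srf 2.02). Heat shock genes did not share a direction at E16.5 against E12.5, with 3 of 12 higher (Hspb1 3.20) and 7 lower. Of 7 integrated stress response genes, 4 were higher (Chac1 2.85) and 1 lower in that comparison. Beside these list counts, 23.8% of all genes were called higher and 22.1% lower at E13.5 against E12.5. The like shares at E16.5 were 20.5% and 17.1% against E12.5 and 28.7% and 25.4% against E13.5. At P6w they were 25.4% and 27.5% against E12.5 and 26.3% and 29.8% against E16.5.

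Markers of other cell types also moved with stage. The 8 interstitial markers, all detected, summed to a CPM of 909 to 971 at E12.5, of 886 to 925 at E13.5, of 2967 to 3274 at E16.5 and of 445 to 487 at P6w. The 5 mast cell markers summed to 5.84 to 7.11 CPM at E12.5, with 2 of the 5 at 0, and to 275 to 296 at E16.5, with none at 0. The 6 erythroid markers summed to a CPM of 3206 to 3585 at E12.5, of 14005 to 15723 at E13.5, of 10589.9 to 14493 at E16.5 and of 264 to 294 at P6w. The 4 germ cell markers summed to a CPM of 6.81 to 6.92 at E12.5, of 21.9 to 23.5 at E13.5, of 95.9 to 123 at E16.5 and of 6.70 to 7.57 at P6w. Interstitial, mast cell and germ cell sums were thus highest at the stage with the highest Dusp1 and Jun levels. From E12.5 to E13.5, where 4 members were lower, the 8 endothelial markers went from 312 to 316 down to 157 to 177 CPM and the 6 mesothelial markers from 699.6 to 715 down to 396 to 417. Their part in the members' differences was not tested.

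In stem cells at 24 h and 48 h the 9 genes were at low to moderate levels, except Ier2 and Dusp1. FPKM, which is scaled by length and depth, ranked Ier2 first and Dusp1 second in all 8 groups. Fos stood at 8.52 and 10.1 FPKM in Con at 24 h and at 2.63 and 3.47 at 48 h. Without small molecules, 5 of 9 members were lower at 48 h than at 24 h and none higher, beside 7.72% of all genes called, by limma on log2(FPKM+1) at a BH adjusted p below 0.05 and a 2-fold limit. Junb went from 20.5 and 21.3 to 5.66 and 4.95 FPKM (log2 -1.80, SE 0.07, adjusted p 1.04e-11), and Nr4a1 from 25.9 and 24.8 to 7.1 and 7.39 (log2 -1.68, SE 0.05, adjusted p 6.71e-13). Fos (-1.35), Fosb (-1.23, from 2.02 and 2.26 to 0.314 and 0.358 FPKM) and Dusp1 (-1.04, from 67.2 and 69.6 to 31.4 and 34.1 FPKM) were the others. At such low FPKM the log2(FPKM+1) scale understates the change, so Fosb cannot be ranked against the others by it. The libraries of the 2 times did not overlap for 7 of 9 members, all but Egr1 and Atf3, beside 82.0% of all genes. Egr1 (-0.15) and Atf3 (-0.03) did not pass the test, and Ier2 (-0.48) and Jun (-0.22) stayed under the 2-fold limit. In the wider list 15 of 38 genes were lower and none higher, led by Phlda1 (-2.50) and Klf4 (-2.40). Marker sums of several cell types were also lower at 48 h in Con, from 119 to 129 FPKM at 24 h to 31.2 to 32.6 for the 7 of 8 interstitial markers found, from 424 to 445 to 124 to 131 for 4 smooth muscle markers, from 3.64 to 3.89 to 0.843 to 1.03 for 6 macrophage markers and from 3799 to 4117 to 2320.1 to 2376 for 7 pluripotency markers. None of the markers found was at 0, and their part in the members' differences was not tested.

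At 24 h no treatment moved a member by as much as 2-fold. The counts called were 0 of 9 for Vc (0.0846% of all genes called), 0 for AM580 (0.404%), 0 for V580 (0.695%) and 0 for V580 against AM580 (0.0658%). At an unadjusted p below 0.05, limma had 7, 2, 6 and 3 members in these comparisons, beside 27.0%, 26.9%, 39.4% and 28.2% of all genes. The largest differences from Con were -0.50 for Atf3 under Vc (limma adjusted p 0.0048) and -0.53 for Egr1 under V580 (adjusted p 0.00103). Egr1 read 14.3 and 15.1 FPKM in Con, 10.9 and 11.5 under Vc, 12.6 and 13.1 under AM580 and 9.27 and 10.6 under V580. Its Con libraries were the highest of the 8 at that time.

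At 48 h Jun was higher under AM580 and Egr1 lower under V580. AM580 had 1 of 9 members called, beside 3.23% of all genes, and this was Jun, at 22.4 and 23.7 FPKM against 11.3 and 10.3 in Con (log2 1.03, SE 0.06, limma adjusted p 4.43e-09). This call sat at the 2-fold limit and was lost without the second Con library (log2 0.97) or the second AM580 library (0.99), and without the first Con library 2 members were called, Egr1 being the other. Egr1 under AM580, at 6.35 and 6.73 FPKM against 11.9 and 14.5, differed by log2 -0.91 (adjusted p 2.25e-06), under the limit. V580 had 1 of 9 called, beside 3.18% of all genes, and this was Egr1, at 5.57 and 4.27 FPKM (log2 -1.26, SE 0.10, adjusted p 6.68e-08). Jun under V580 read 14.3 and 16.3 FPKM (log2 0.47, adjusted p 1.9e-05), between Con and AM580. Vc alone had 0 of 9 called (0.047% of all genes), with Fos at log2 -0.50 and Jun at -0.37, and 5 members at an unadjusted limma p below 0.05, beside 27.1% of all genes.

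V580 set against AM580 at 48 h had 0 of 9 called, beside 0.263% of all genes. All 9 differences were below 0, led by Fos (-0.88, limma adjusted p 5.6e-05), Jun (-0.56) and Fosb (-0.53), and 7 had an unadjusted limma p below 0.05, beside 32.4% of all genes. Fos read 4.16 and 4.26 FPKM under AM580 and 1.91 and 1.75 under V580. Fosb read 0.979 and 0.719 FPKM under AM580, 0.224 and 0.324 under V580 and 0.314 and 0.358 in Con. At such low values the log2(FPKM+1) scale understates its differences. The test of whether a treatment differed from Con by another amount at 48 h than at 24 h, with no fold limit, called 5 of 9 members for AM580 (35.0% of all genes), 4 of 9 for V580 (33.9%) and 1 of 9 for Vc (2.9%). For AM580 the members were Jun (0.75), Junb (0.36), Fosb (0.34), Egr1 (-0.72) and Dusp1 (-0.19). For V580 they were Jun (0.62), Fos (-0.58), Egr1 (-0.74) and Dusp1 (-0.60), and for Vc it was Dusp1 (-0.35). The count for AM580 was 3 without either AM580 library at 24 h or without the first at 48 h. All these treatments share the Con libraries of their time.

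**Figure D3:**
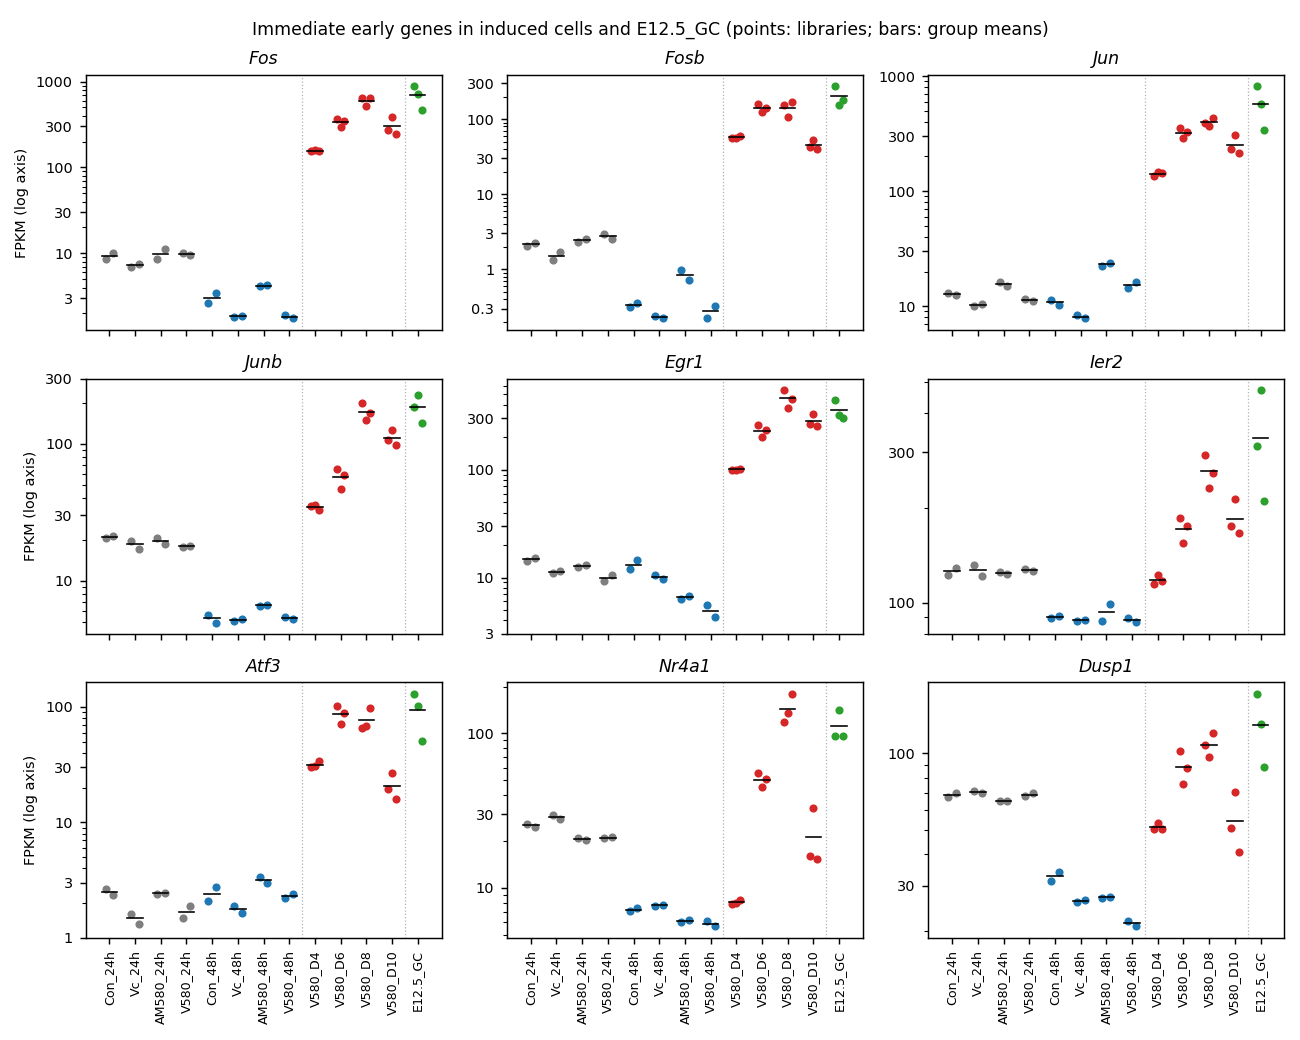
FPKM (log axis) of the 9 genes in the 31 libraries of the 13 groups, each point a library. Fos, Fosb, Jun and Egr1 lie far higher in the V580 cultures from day 4 on than at 24 h and 48 h, and Nr4a1 peaks at V580_D8, with 119 to 179 FPKM.

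The V580 cultures at day 4 held far more AP-1 and Egr1 mRNA than V580 cells at 48 h. This comparison was added after the values had been seen, and it joins 2 sets of libraries whose listed FPKM sum to 286024 to 319893 (24 h and 48 h) and 215893 to 266293 (days and E12.5_GC), so that time and library set cannot be told apart. Of the 9, 7 were higher and none lower, beside 15.6% of all genes called. Fos went from 1.91 and 1.75 FPKM to 155, 158 and 156 (log2 5.80, SE 0.19, limma adjusted p 4.17e-18), and Fosb from 0.224 and 0.324 to 55.4, 56.2 and 60 (log2 5.51, SE 0.18). Egr1 (4.11), Atf3 (3.30), Jun (3.13), Junb (2.48) and Dusp1 (1.22) were the others. Ier2 (0.42) and Nr4a1 (0.40) were not called, and Nr4a1, at 7.9, 8.05 and 8.37 FPKM on day 4, was the lowest of the 9. Of the wider list 14 of 40 were higher and 6 lower, while of the 11 ERK feedback genes 1 was higher and 6 were lower, led by Etv4 (-4.82) and Etv5 (-3.59). Pluripotency markers (7 genes) summed to 2076 to 4216 FPKM at 24 h and 48 h and to 202 to 229 on day 4, and their part was not tested.

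From day 4 to day 6, 6 of the 9 were higher and none lower, beside 5.08% of all genes called. Nr4a1 went from 7.9, 8.05 and 8.37 FPKM to 55.1, 45.2 and 50.3 (log2 2.49, SE 0.23, limma adjusted p 7.56e-07), or 5.61-fold. Atf3 (1.42), Fosb (1.28), Jun (1.18), Egr1 (1.18) and Fos (1.10, reaching 370, 298 and 347 FPKM) were the other members called. Dusp1 (0.76) and Junb (0.70) stayed under the 2-fold limit, and Ier2 (0.53, limma adjusted p 0.0507) did not pass the test. The median was 1.18 over the 9 and -0.01 over all genes. Of the wider list 7 of 40 were higher and 1 lower, led by Egr2 (1.74), and of the ERK feedback genes 4 of 11 were higher, led by Etv5 (1.40).

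From day 6 to day 8 Junb and Nr4a1 were higher, 2 of 9, beside 2.55% of all genes called. Junb went from 65.3, 47.2 and 59.1 to 198, 150 and 167 FPKM (log2 1.57, SE 0.16, adjusted p 2.98e-06), and Nr4a1 to 119, 135 and 179 (log2 1.49, SE 0.23, adjusted p 0.000163). Egr1 (0.98) and Fos (0.83) stayed under the limit, and Fosb (0.00) and Atf3 (-0.17) did not pass the test. On day 8 Fos reached 649, 518 and 636 FPKM and Egr1 549, 376 and 455, the highest of the 9.

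From day 8 to day 10 the direction turned, with 4 of 9 lower and none higher, beside 1.29% of all genes called. Nr4a1 dropped to 16.1, 32.7 and 15.3 FPKM (log2 -2.76, SE 0.23, limma adjusted p 1.16e-06), Atf3 to 19.5, 26.5 and 15.9 (-1.87, SE 0.27, adjusted p 0.000142) and Fosb to 43.1, 52.3 and 40.3 (-1.62, SE 0.20, adjusted p 2.87e-05). The libraries of the 2 days did not overlap for any of the 9 members, beside 59.1% of all genes that did not overlap. Dusp1 (-1.02) was the fourth. Fos, at 276, 388 and 248 FPKM (limma adjusted p 0.00166), stayed just under the 2-fold limit. Egr1 (-0.70), Jun (-0.66) and Junb (-0.63) were further under it, and Ier2 (-0.50, limma adjusted p 0.0784) did not pass the test. Of the wider list 4 of 40 were lower and none higher, led by Egr2 (-1.42). Over the same days the interstitial markers (7 listed) summed to 73.4 to 84.9 FPKM on day 4, 181 to 190 on day 6, 537 to 680 on day 8 and 1398 to 1721 on day 10, and their part was not tested.

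Against cells of E12.5 gonads, all 9 genes were lower in V580 cultures on day 4, none was called on day 8, and 6 were lower on day 10. On day 4 all 9 were lower, beside 20.4% of all genes called, from -1.27 (Dusp1) to -3.60 (Nr4a1, against 96.4, 141 and 95.4 FPKM in E12.5_GC, limma adjusted p 2.74e-09), with a median of -1.79. On day 6, 2 of 9 were lower, Junb (-1.67) and Nr4a1 (-1.11), beside 15.2%, and this count was 1 without the second E12.5_GC library and 5 without the third. On day 8, 0 of 9 were called by limma, beside 13.0%, with differences from -0.47 (Fosb, adjusted p 0.0486) to 0.38 (Egr1 and Nr4a1) and 2 members at an unadjusted p below 0.05, beside 66.6% of all genes. Fos read 881, 724 and 472 FPKM in E12.5_GC, a range that the day 8 values lay within. On day 10, 6 of 9 were lower, beside 16.4%, led by Nr4a1 (-2.38), Fosb (-2.09) and Atf3 (-2.06), while Egr1 (-0.32), Junb (-0.72) and Ier2 (-0.77) were not. Of 12 heat shock genes, 1 was higher (Hsp90aa1, 1.05) and 3 lower on day 4 (median log2 0.09, against 0.03 over all genes), none was higher and 3 and 4 were lower on days 6 and 8, and 1 was higher (Hspb1, 1.36) and 4 lower on day 10. The inducible Hspa1a and Hspa1b were lower on all 4 days, at log2 -4.26 and -3.86 on day 4. The erythroid markers (3 listed) summed to 1038 to 4435 FPKM in E12.5_GC and to at most 0.739 in any other group, and their part was not tested. E12.5_GC also differed from the E12.5 stage libraries in the order of the members. Fos, Jun, Egr1 and Ier2 led in E12.5_GC, with means of 692, 576, 355 and 332 FPKM. In the stage libraries Ier2 led with 617 CPM per kb, before Fos (516), while Jun had 72.7 and Egr1 54.3. The 2 scales differ, and the cause was not tested.

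**Figure D4:**
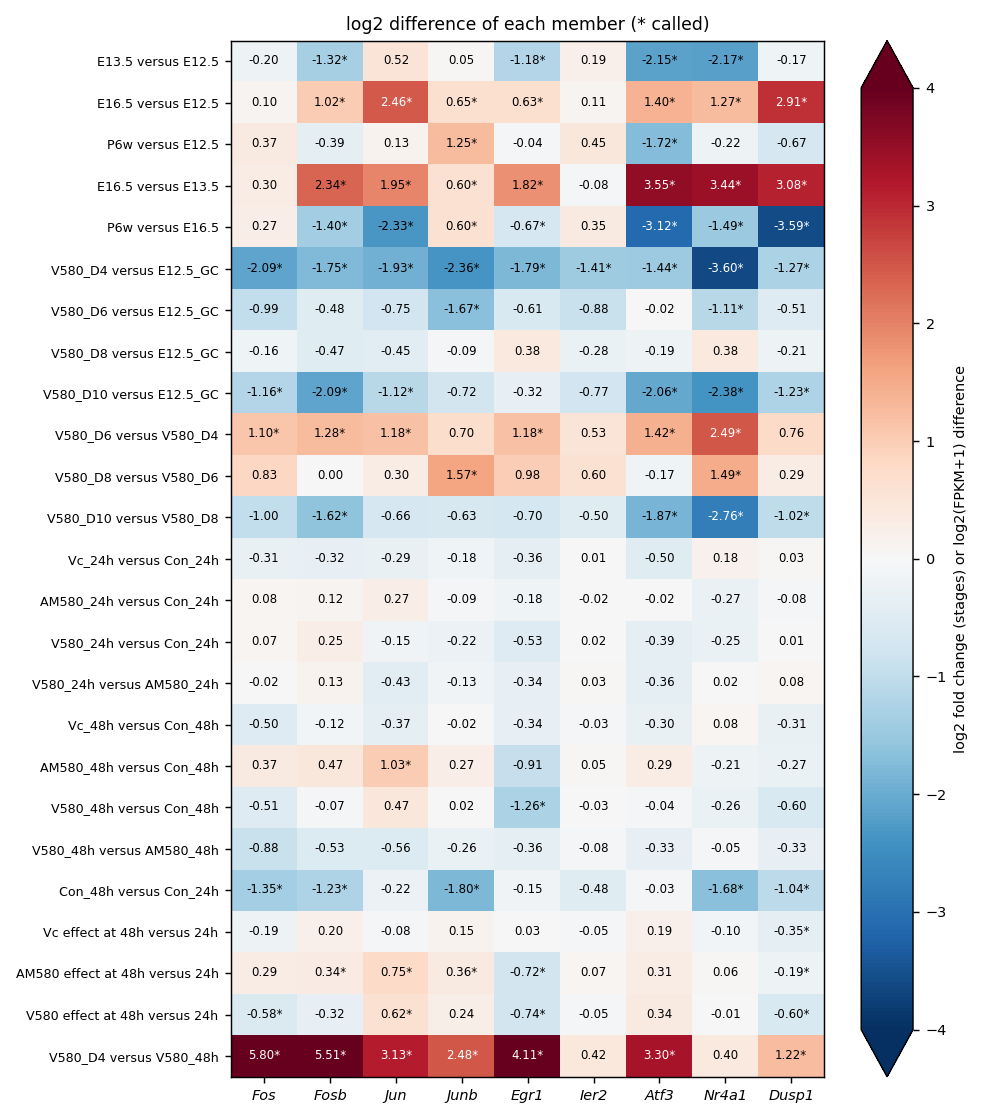
Log2 differences of the 9 genes (columns) in 25 comparisons (lines), with an asterisk where the gene was called. Colour runs from lower to higher in the group named first and saturates at 4. E16.5, V580_D4 against V580_48h and V580_D6 against V580_D4 stand out as higher, and V580_D4 and V580_D10 against E12.5_GC as lower.

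Within the groups of day 6 and day 10 the 9 genes also moved together. On day 6 all 9 were highest in the first library and lowest in the second, and on day 10 all 9 were highest in the second library and lowest in the third. The median SD of the members on the log2(FPKM+1) scale was 0.179 on day 6 and 0.266 on day 10, against 0.0441 and 0.0682 over all genes, and 1.57% and 0.539% of genes had an SD as large as that median. On day 8 it was 0.202 against 0.0666, with the second library lowest for 7 of 9. In E12.5_GC it was 0.46 against 0.188, with the third library lowest for 8 of 9. On day 4 the SD was 0.0495 against 0.0564, so the members did not stand apart there. Nor did they lean to 1 library at 24 h and 48 h in 4 of the 8 groups (both Vc groups, AM580 and V580 at 24 h), where they split 5 to 4. In the other 4 they split 6 to 3 or 7 to 2, and the median SD over the 8 groups ran from 0.0225 against 0.0394 over all genes (Vc at 48 h) to 0.0816 against 0.0402 (Con at 48 h). Over the 15 libraries of the days and E12.5_GC, Pearson's r between 2 members on the log2 scale ran from 0.362 to 0.97, with a median of 0.843 over 36 pairs. Over the 8 stage libraries it ran from -0.339 to 0.99 (median 0.514), and over the 16 libraries at 24 h and 48 h from -0.487 to 0.983 (median 0.596). These values describe libraries that fall into groups and share their scaling.

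In the 10x library of V580 cells at day 6, 15315 of 15412 barcodes were kept, with a median of 9281 unique molecular identifiers (UMIs) and 3074 genes. The study's text describes repeated 10x runs. All barcodes of the table carry the same suffix and no map from cells to runs was found, so it was treated as 1 sample, intervals are exact Poisson or binomial and cover counting error only, and no test between clusters was made. The 9 genes together took 141282 UMIs, a CPM of 868 (95% interval 863 to 872), here UMIs of a gene scaled to all UMIs of the cells. Jun had the most, a CPM of 383, then Egr1 (111), Ier2 (103), Fosb (96.0) and Fos (92.3), and Nr4a1 the fewest (6.67). The 3' libraries count molecules and not length, so the order differs in scale from that of FPKM.

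Cells were clustered without the members and the wider list, into 12 clusters. Cluster 5, led by Wfdc2, Cxcl15, Stra8 and Cldn3 (1062 cells), had the highest levels of Fos (155 CPM, 150 to 161), Junb (90.2), Egr1 (158) and Ier2 (152). Its Egr1 interval (152 to 164) overlapped that of cluster 3 (151, 146 to 156), led by Actg2 and Lum. Its Fos interval overlapped the wide one of cluster 11 (102, 62.2 to 157, 26 cells). Its Ier2 interval (147 to 158) overlapped that of cluster 10 (124, 98.1 to 154, 66 cells). Cluster 1, mesothelial-like by Upk3b and Lrrn4 among its leading genes (3191 cells), had the highest Jun (503, 496 to 510). Cluster 2, led by cycling genes such as Mki67 and Top2a (1825 cells), had the highest Fosb (136, 132 to 140). That interval overlapped the one of cluster 5 (132, 126 to 137). Clusters 5, 1 and 2 are of good depth, with medians of 15870, 12147 and 17511 UMIs. Cluster 6, led by Cited1, S100g and Gpx2 (885 cells), had the lowest Fos (13.2, 9.57 to 17.7) and Egr1 (10.8) and the lowest sum over the 9 (196 CPM, against 1210 in cluster 5). Its median depth was 2662 UMIs, far below that of cluster 5. Cluster 7 (881 cells) shares S100g, Pitx1 and Spink1 with it among the leading genes, and its median depth was 23550 UMIs. Levels there were higher, with Fos at 57.4, Egr1 at 41.6 and a sum of 494 CPM. Cluster 8 was led by Rhox9, Sct and Rhox6 (659 cells, with a median of 3022 UMIs). It had the highest Dusp1 (79.6, 72.9 to 86.8) and Atf3 (39.8, 35.1 to 45.0) beside a low Nr4a1 (1.54). Its Dusp1 interval overlapped the wide one of cluster 11 (50.9, 24.4 to 93.6).

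**Figure D5:**
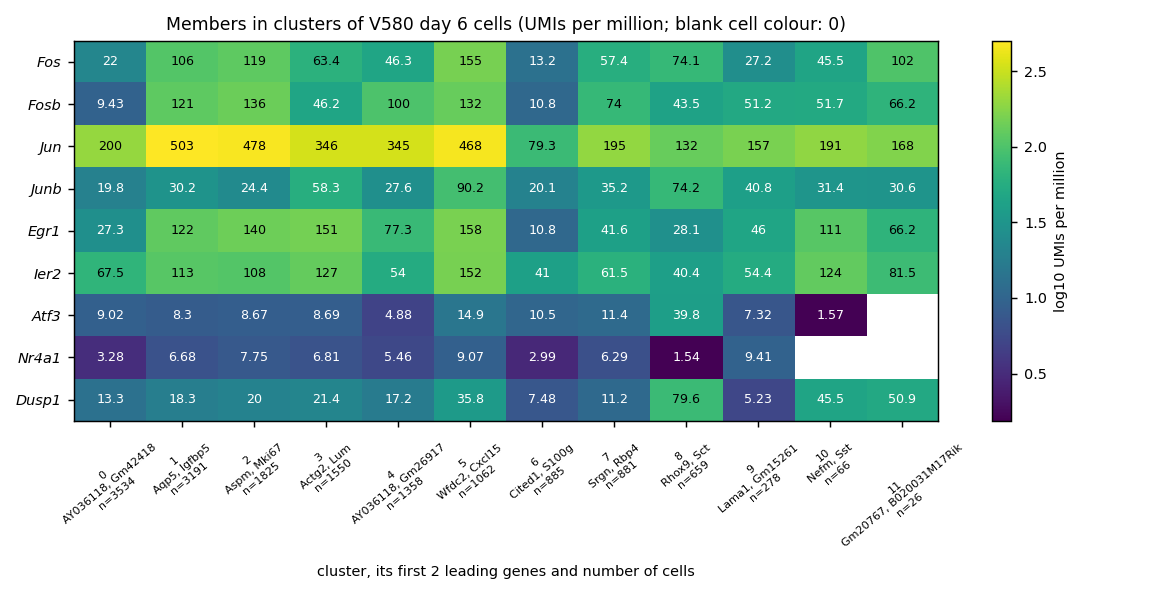
CPM of UMIs of the 9 genes in the 12 clusters of the 10x library, summed over the cells of a cluster. Fos, Junb, Egr1 and Ier2 are highest in cluster 5 and Dusp1 and Atf3 in cluster 8, while cluster 6 is low for most.

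To compare shares of cells at 1 depth, each cell was thinned to 1100 UMIs, which left out 1261 shallower cells and kept 14054. Fos was then seen in 6.96% of cells (30.4% before thinning) and Jun in 26.0% (63.0% before). In cluster 5 the share with Fos was 12.1% (10.2 to 14.2), against 1.61% (0.86 to 2.74) in cluster 6 and 6.02% (4.54 to 7.8) in cluster 7. For Egr1 the share was 15.0% in cluster 3 and 13.8% in cluster 5, and for Fosb 13.7% in cluster 5 and 12.7% in cluster 2. No cell type in the culture is known to lack these genes, so the share that free RNA gives could not be set. Of the thinned cells, 54.2% showed no member and 0.861% showed 4, and the most seen in 1 cell was 6, in 5 cells. Among the 978 cells with Fos, 20.1% also had Fosb, against 6.55% of the 13076 cells without Fos. The like shares were 43.8% and 24.7% for Jun, 18.1% and 7.8% for Egr1 and 3.07% and 1.91% for Dusp1. These shares mix clusters, and no doublet caller was run. Among the clusters are cluster 0 (23.1% of kept cells, with medians of 1450 UMIs and 788 genes) and cluster 4 (8.87%, with a median of 15.9% mitochondrial counts). Of their thinned cells, 2.65% and 4.21% had Fos. The part of cell quality in the shares was not tested.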

How the data were processed

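For the 8 stage libraries the authors deposited raw read counts per gene symbol, for 31 libraries FPKM without counts, and for 1 10x library UMI counts. Their processing notes and methods name Trim Galore, FastQC, HISAT2, SAMtools, featureCounts, RSEM and mm10, and Cell Ranger for the 10x library. Which tool gave the FPKM, and the steps behind it, are not given in the sources used here. The FPKM columns named C and X580 were taken as Vc and AM580 from their sample labels. A further table, whose columns could not be matched to single samples, and all samples without a column in these tables were not used here.

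In R 4.3.3, edgeR 4.0.16 (filterByExpr, TMM, quasi-likelihood F test) was applied to the counts in a model of 8 libraries, with a call where the BH adjusted p over all genes was below 0.05. FPKM were tested with limma 3.58.1 (trend) on log2(FPKM+1), a scale that understates the change of low genes, for genes of at least 1 FPKM in 3 (days) or 2 (24 h and 48 h) libraries, with a 2-fold limit except in the tests between times. No depth is known for FPKM. 10x cells of 200 genes or more, with mitochondrial counts up to 40%, were clustered with scanpy 1.11.5 and leidenalg 0.10.2 (Python 3.11.15) on 1987 variable genes. Exon lengths came from the GENCODE annotation of GRCm38, and 98.6% of genes tested had one.

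DESeq2 1.42.0, RLE scaling, other filters, a pseudocount of 0.1, a length term, centring, a replicate block and leaving out each library were alternatives. Shares of all genes called belong to the main models, and none is given for these alternatives. The procedures were tested on simulated data. The members and lists were chosen with earlier results of these data known. All 9 members are given, and of each list at most 4 called genes with the largest differences per comparison.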

Additional observations from a re-analysis of the deposited data

Results flagged for a closer look

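The difference between treated and Con cells changed between 24 h and 48 h for 6 of the 9 genes under at least 1 treatment. Limma tested that change at a BH adjusted p below 0.05 over all genes (log2(FPKM+1) scale, 2 libraries a group). No share of all genes is given for that joint count. The same test called 35.0% of all genes for AM580, 33.9% for V580 and 2.9% for Vc, beside 5, 4 and 1 of the 9 members. With 9 members, the AM580 and V580 counts were not far from those shares. The change, the difference at 48 h minus that at 24 h, was 0.75 for Jun (adjusted p 1.65e-05), 0.36 for Junb (0.00992), 0.34 for Fosb (0.0475), -0.72 for Egr1 (0.0011) and -0.19 for Dusp1 (0.0248) under AM580. Under V580 it was 0.62 for Jun (adjusted p 0.000102), -0.58 for Fos (0.00979), -0.74 for Egr1 (0.000988) and -0.60 for Dusp1 (3.69e-06). Under Vc it was -0.35 for Dusp1 (adjusted p 0.0053). The Con libraries are shared, and in them Dusp1, Fos, Fosb and Junb were themselves lower at 48 h than at 24 h.
The Fosb call was lost with a replicate block (adjusted p 0.0558), without the filter on low values (0.0556) and on leaving out any of 6 of the 8 libraries (adjusted p up to 0.195).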

How the results depend on the processing

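Of 45 single-gene results of the stages, all 45 kept their direction and side of the threshold under RLE scaling and 42 under DESeq2, the other 3 being Junb calls lost. The counts of members called moved by over 1.5 times in a fit of only the 2 stages compared (7 for E13.5 and 6 for P6w, each against E12.5) and without the filter on low counts (6 for P6w against E12.5). With a pseudocount of 0.1, the count was 2 for AM580 against Con and 2 for V580 against AM580 at 48 h. With no fold limit, at 48 h, it was 4 for Vc (12.4% of all genes), 8 for AM580 (57.0%) and 5 for V580 (57.1%) against Con. It was 7 for V580 against AM580 (19.2%). At 24 h, it was 5, 2, 5 and 3, beside 13.6%, 14.8%, 29.0% and 14.8% of all genes. Against E12.5_GC it was 8 on day 6 (67.0%) and 1 on day 8 (63.2%). It was 5 for day 8 against day 6 (41.1%) and 8 for day 10 against day 8 (34.5%). Over all FPKM comparisons, 12.4% to 74.1% of all genes passed. The 10x sum of the members was a CPM of 873 at most 10% mitochondrial counts, 883 with at least 1000 genes and 737 in thinned cells.

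When each library was left out in turn, 1038 of 1098 single-gene results kept direction and side, 32 lost the call, 24 gained it and 4 reversed, all on leaving out an E16.5 library: Fos (-0.46) and Ier2 (-0.55) against E12.5, and Fos (-0.26) and Ier2 (0.37) against E13.5. Without replicate 1, Fos (0.50) and Ier2 (0.55) against E12.5 and Fos (0.71) against E13.5 gained a call, as did Ier2 (-0.73) against E13.5 without replicate 2. The counts ranged from 4 to 5 (E13.5 against E12.5), 5 to 9 (E16.5 against E12.5), 6 to 9 (E16.5 against E13.5, and P6w against E16.5), 1 to 5 (day 6), 4 to 7 (day 10) against E12.5_GC, 2 to 3 (day 8 against day 6), 3 to 5 (day 10 against day 8), 0 to 2 (AM580 at 48 h) and 4 to 5 (Con at 48 h against 24 h). Between times they ranged from 3 to 4 for AM580 and from 4 to 5 for V580. The causes were not tested.

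Replicate numbers were not treated as pairs, since same-numbered libraries of 2 stages correlated at -0.0403 to 0.0673. Those of the days and treatments had medians of 0.0288 (-0.428 to 0.384, 9 of 30 over 0.1) and 0.016 (-0.424 to 0.209, 14 of 56 over 0.1). With 2 libraries in each treatment group, both replicates give the same value, so each value is counted 2 times among the 56. Of the comparisons of days, V580_D4 against E12.5_GC had all 3 over 0.1 (0.115, 0.292 and 0.342), and the block left its count at 9. With a replicate block, 214 of 216 single-gene results kept their side, Dusp1 at P6w against E12.5 gained the call (3 members called) and Fosb in the AM580 change between times lost it (4 called). The number of libraries, 2 or 3 a group, limits the precision, and for FPKM the depth is unknown.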

Other observations

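The genes whose levels ran most like the mean of the 9 members over the 8 stage libraries (Pearson's r of standardised log2 values, a description) were Rsrp1 (0.971), Scg2 (0.97), Sfswap (0.966), Klf6 (0.962) and Hectd4 (0.958). Scg2 was near the limit of detection, between -1.0 and 1.73 on the log2(CPM+0.5) scale, where -1.0 means no reads. Over the 31 FPKM libraries they were Plscr3 (0.98), Cmtm3 (0.977), Os9 (0.973), Ntf5 (0.973) and Fbxl17 (0.971), with the libraries in 2 separate sets. Among the members themselves, r with that mean ran from 0.314 (Ier2) to 0.93 (Nr4a1) over the stages.

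In the 10x library the wider list of immediate early genes summed to a CPM of 2500 in cluster 5 and 1130 in cluster 6, the highest and the lowest of the 12 clusters. Clusters 8 (2480), 3 (2440) and 1 (2340) came close to cluster 5. The 9 members summed to only 513 in cluster 8, against 1210 in cluster 5. The ERK feedback genes summed to 303 in cluster 10, led by the neuronal genes Nefm and Tubb3 (66 cells), and to 79.9 in cluster 6.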
